A study of Oryza sativa with 8 samples.

Results

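Auxin is the plant hormone of cell division, callus growth and root formation, and abscisic acid (ABA) and gibberellin (GA) act beside it in seeds and seedlings. Indole-3-acetic acid (IAA), the natural auxin, is made by YUCCA flavin monooxygenases, exported from cells by PIN carriers, tied to amino acids by GH3 synthetases and methylated by IAMT1. Cells read it when the TIR1/AFB receptors mark Aux/IAA repressors for breakdown, which frees the auxin response factors (ARF) that bind auxin-responsive genes. Aux/IAA and GH3 genes are known from other plants as early auxin-responsive genes.

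The auxin signalling, transport and conjugation genes were chosen by name in the rice RefSeq annotation: a symbol or synonym, with or without Os in front, made of IAA, ARF, SAUR, PIN, YUCCA, AUX, TIR or AFB and a number, of GH3- and a number, or IAMT1, and OSPIN10a. The rule found 72 genes, of which 56 had a listed probe, 51 with 1 probe and 5 with 2, giving 61 of the 17782 probes tested. These were 27 probes of 25 Aux/IAA genes, 18 of 16 ARF genes, 9 of 8 GH3 genes, 5 PIN probes and 1 each for YUCCA1 and IAMT1. By these names the annotation held 1 SAUR gene, which had no listed probe, and 0 AUX, TIR or AFB genes. Genes of these families that are listed under other names were not covered by the rule. All 61 had a value on all 8 arrays, so no filter on low values removed a member. Some genes carry several names, and those used here are PIN6 (also OsPIN5a), PIN9 (also PIN5), PIN4 (also PIN5C), OSPIN10a (also OsPIN3t, PIN3A), IAA13 (also IAA1), IAA4 (also IAA20), IAA5 (also IAA8), ARF1 (also ARF16), ARF4 (also OsARF2), ARF12 (also OsARF8), ARF18 (also OsARF10) and ARF23 (also OsARF1).

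The samples were 8 arrays of a 22K rice oligonucleotide array, each with treated and untreated callus in 2 dyes. The callus came from the scutellum, the shield-like organ of the embryo, of the japonica variety Nipponbare. It had been grown for 30 d with 10 µM of 2,4-dichlorophenoxyacetic acid (2,4-D), a synthetic auxin, and the labels name no other culture for the untreated callus. Treated callus was then moved for 3 d to medium with 50 µM ABA (4 arrays) or 50 µM GA (4 arrays). The labels do not say whether 2,4-D was still present. On the arrays of either hormone, its effect therefore cannot be told apart from the move, the added culture time or any loss of 2,4-D. Lower and higher under a hormone mean treated against untreated callus. On ABA arrays 24 and 20 and GA arrays 04 and 05 the treated sample was in Cy3, and on ABA arrays 19 and 23 and GA arrays 07 and 08 it was in Cy5.

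Values are log2 ratios of treated over untreated, and are given as the mean ± SD over n = 4 arrays of a hormone. A probe was called when the Benjamini-Hochberg adjusted p of limma, over all probes, was under 0.05. The SD includes differences between the dye orientations. The SE and adjusted p come from a fit with 1 dye term common to the 8 arrays, so they measure a different spread. The sign of arrays with treated callus in Cy3 was turned, and the resulting direction is likely for ABA, where the seed genes EM (1.25 ± 0.21) and RAB16B (1.27 ± 0.22), which ABA is known to raise, were higher. For GA the direction rests on the dye labels and the same turning, with no such check. Under GA, so turned, EM (−2.83 ± 0.14) and RAB16B (−1.52 ± 0.16) were lower. The array is a ratio of 2 samples and gives no level, so neither the callus identity nor the level of any auxin gene can be read from it. Fewer cells of a type and less RNA per cell cannot be told apart in these bulk samples. Once turned, the ratios of the 61 probes correlated across probes, which are not independent replicates, at 0.98 to 0.99 (ABA) and 0.95 to 0.99 (GA) between arrays of the same dye orientation, and at 0.78 to 0.82 and 0.88 to 0.95 between opposite orientations. Over all probes the correlation between opposite orientations was lower, at 0.51 to 0.60 (ABA) and 0.70 to 0.82 (GA). Between GA arrays 07 and 08, of the same orientation, it was 0.87 over all probes, against 0.96 between GA arrays 04 and 05.

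Under ABA more auxin probes were called lower than higher, and most of those lower were Aux/IAA probes. The largest falls were in OSPIN10a (export), IAMT1 (methylation) and Aux/IAA probes. Of the 61 probes 23 were lower and 8 higher under ABA. Over all probes 23.7 percent were called lower and 18.0 percent higher, 41.8 percent in all. Aux/IAA made up 15 of the lower and 2 of the higher probes. Among the rest, ARF had 3 lower and 5 higher, GH3 2 and 0, and PIN 1 and 1. The median of the auxin probes was −0.07, against −0.00459 for all probes, and was −0.0304 without array 23, −0.0444 without array 19 and −0.0359 after quantile normalization. All 8 auxin probes that were called and at least 0.5 from 0 under ABA were lower. Of all probes 2.87 percent were that much lower and 2.11 percent that much higher. Of the 8, 6 were Aux/IAA probes and the others were OSPIN10a and IAMT1. The rule names OSPIN10a and IAMT1 singly and was set with earlier results of these data known. The count of 8 higher probes rests on small shifts and was 4 without array 24, 5 without array 20 and 5 without array 23, while that of lower probes was 22 to 26 without any 1 array.

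Under GA auxin genes moved in both directions. Of the 61 probes 23 were lower and 19 higher. Over all probes 22.8 percent were called lower and 26.2 percent higher, 49.0 percent in all. The auxin median was −0.03, against −0.00504 for all probes, and was −0.0144 without array 07 and −0.0442 without array 08. The median size of the shift, without its sign, was 0.22 for auxin probes and 0.11 for all probes. At 0.5 or more, 8 auxin probes were lower and 7 higher, sizes that 3.34 and 5.12 percent of all probes reached.

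**Figure D1:**
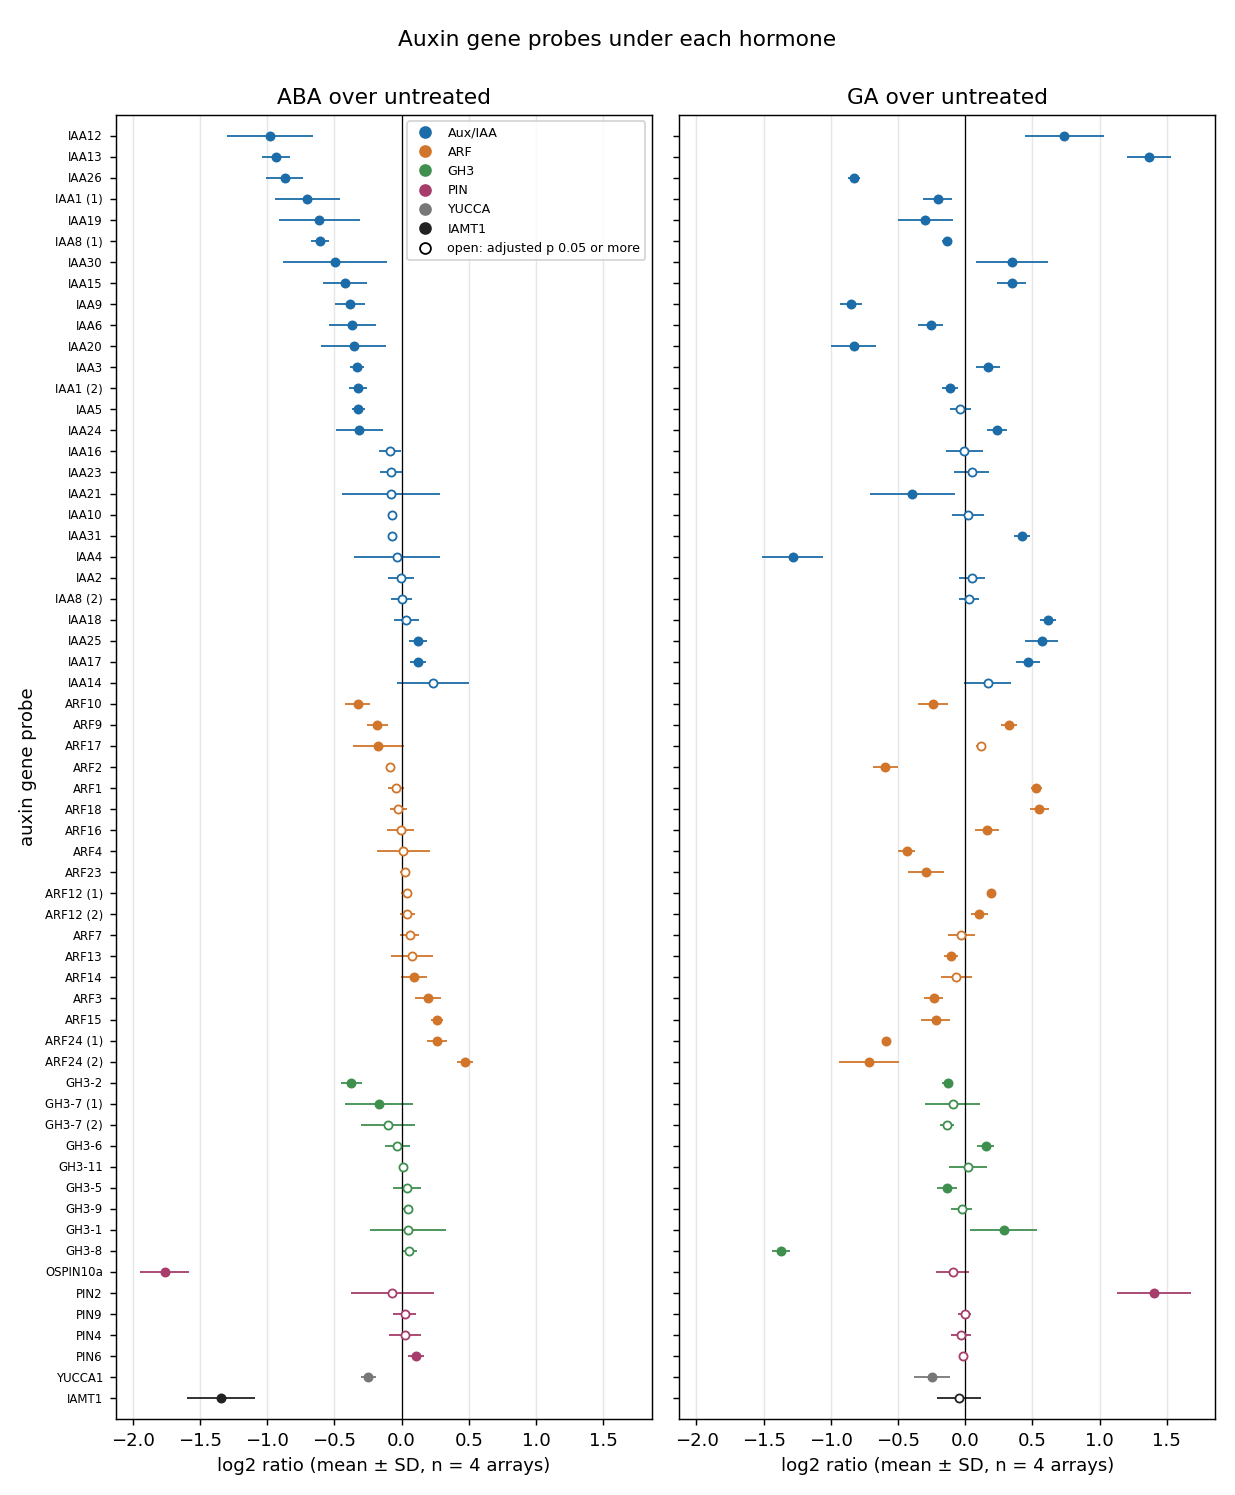
Log2 ratio of treated over untreated for each of the 61 auxin probes (mean ± SD, n = 4 arrays), ABA on the left and GA on the right, coloured by subfamily, with filled points for adjusted p under 0.05 (limma). A number in brackets marks the probe of a gene with 2 probes. Under ABA the points that lie far from 0 are on the left, led by OSPIN10a at −1.76, whereas under GA they lie on both sides, from GH3-8 at −1.37 to PIN2 at 1.41.

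Genes that make and inactivate auxin were the first group. YUCCA1, which carries out the last step of IAA synthesis from indole-3-pyruvate, was at −0.28, −0.30, −0.22 and −0.18 on ABA arrays 24, 20, 19 and 23, and at −0.13, −0.16, −0.43 and −0.26 on GA arrays 04, 05, 07 and 08. It was below 0 on all 8 arrays. The fall was −0.25 ± 0.06 under ABA (adjusted p = 0.00305) and −0.24 ± 0.14 under GA (adjusted p = 0.00232).

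IAMT1 turns IAA into its methyl ester. On ABA arrays 24, 20, 19 and 23 it gave −1.07, −1.20, −1.49 and −1.62, and on GA arrays 04, 05, 07 and 08 it gave 0.10, 0.03, −0.03 and −0.28. Every ABA array was below every GA array. IAMT1 thus fell 2.54-fold under ABA (−1.34 ± 0.26, adjusted p = 1.06e-07) and was at −0.05 ± 0.17 under GA (adjusted p = 0.510), where it was called lower without GA array 07 (−0.12, adjusted p = 0.0417). The hormones differed by −1.30 with an SE of 0.07 (adjusted p = 7.60e-07). IAMT1 was the 40th lowest of 17782 probes under ABA.

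Among GH3 genes, whose enzymes join auxin or other acid hormones to amino acids, GH3-8 stood out under GA. GH3-8 makes inactive IAA conjugates in rice. On GA arrays 04, 05, 07 and 08 it gave −1.42, −1.43, −1.32 and −1.30, and on the 4 ABA arrays it gave 0.00 to 0.12. It fell 2.58-fold under GA (−1.37 ± 0.07, adjusted p = 1.50e-09) and was at 0.06 ± 0.06 under ABA (adjusted p = 0.121), a difference of 1.42 with an SE of 0.04 (adjusted p = 4.80e-09).

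GH3-2, which also conjugates IAA in rice, fell under both hormones. Its ABA arrays gave −0.39, −0.43, −0.42 and −0.26 and its GA arrays −0.14, −0.13, −0.18 and −0.08, so the groups did not overlap. The falls were −0.37 ± 0.08 (adjusted p = 3.76e-05) and −0.13 ± 0.04 (adjusted p = 0.0120). GH3-1 rose under GA (0.29 ± 0.25, adjusted p = 0.00624), but GA array 08 was at −0.09 while the other arrays were at 0.37 to 0.46. GH3-6 rose under GA (0.15 ± 0.06) and GH3-5, named in the annotation as JAR1 and known to conjugate jasmonate rather than auxin, fell (−0.13 ± 0.07). GH3-9 and GH3-11 were called under neither hormone. GH3-7 was lower under ABA on 1 probe (−0.17 ± 0.25, adjusted p = 0.0112), with arrays of both signs, and not called on the other (−0.10 ± 0.20, adjusted p = 0.164). In all 2 of 9 GH3 probes were lower under ABA and none higher by limma, also none at an unadjusted p under 0.05, and under GA 3 were lower and 2 higher. These shares, 22.2 percent lower under ABA and 33.3 percent lower and 22.2 percent higher under GA, stand against 23.7, 22.8 and 26.2 percent of all probes.

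Auxin transport gave the largest single change of either hormone among the 61 probes. OSPIN10a, a PIN efflux carrier that moves auxin out of cells, gave −1.55, −1.67, −1.87 and −1.95 on ABA arrays 24, 20, 19 and 23. On GA arrays 04, 05, 07 and 08 it gave −0.08, −0.07, 0.03 and −0.26. The lowest GA array lay more than 1 log2 unit above the highest ABA array. The fall under ABA was 3.39-fold (−1.76 ± 0.18, adjusted p = 2.78e-08), and the value under GA was −0.09 ± 0.12 (adjusted p = 0.197), where it was called lower without GA array 07 (−0.18, adjusted p = 0.00431). The difference between the hormones was −1.67 with an SE of 0.08 (adjusted p = 2.11e-07), and OSPIN10a was the 11th lowest of all probes under ABA.

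PIN2, the carrier known from Arabidopsis roots for transport in the outer root layers, showed its change under GA instead. On GA arrays 04, 05, 07 and 08 it gave 1.64, 1.59, 1.36 and 1.04. On ABA arrays 24 and 20 it gave 0.21 and 0.17 and on arrays 19 and 23 it gave −0.25 and −0.41, so the sign under ABA followed the dye. PIN2 rose 2.65-fold under GA (1.41 ± 0.28, adjusted p = 5.29e-08) and did not pass under ABA (−0.07 ± 0.31, adjusted p = 0.327). The difference was −1.48 with an SE of 0.07 (adjusted p = 3.21e-07).

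The other 3 PIN probes stayed near 0. PIN6 was higher under ABA by 0.11 ± 0.06 (adjusted p = 0.0181), and PIN4 and PIN9 were called under neither hormone, with means from −0.03 to 0.03. Of 5 PIN probes 1 was lower and 1 higher under ABA. Under GA 1 was higher and none lower by limma, also none at an unadjusted p under 0.05. Each is 1 probe of 5, where 23.7 and 18.0 percent of all probes were lower and higher under ABA and 26.2 percent higher under GA.

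**Figure D2:**
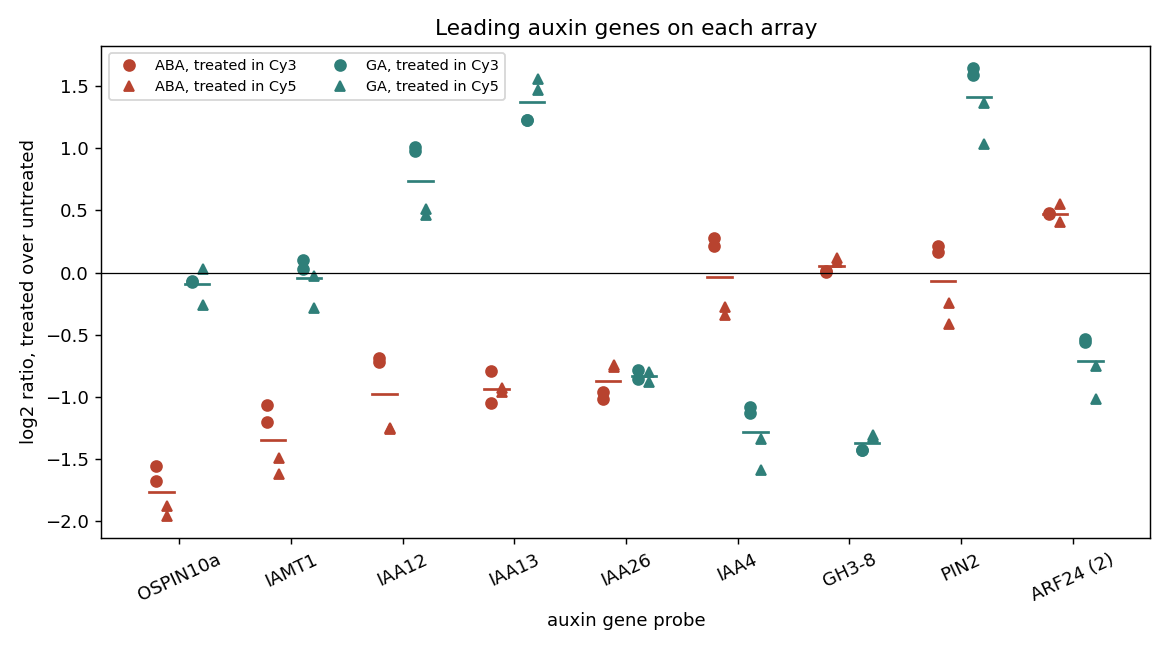
Log2 ratio of treated over untreated on each array for 9 leading auxin probes, ABA in red and GA in green, circles for arrays with the treated sample in Cy3 and triangles for Cy5, and bars for the mean of 4 arrays. The ABA points of OSPIN10a and IAMT1 lie at −1.07 or lower while their GA points lie at −0.28 or higher, IAA26 is low under both hormones, and IAA12, IAA13 and ARF24 have opposite signs.

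Transcripts of Aux/IAA genes, which encode the repressors that auxin removes, were mostly lower under ABA. Of 27 probes 15 (55.6 percent) were lower and 2 (7.41 percent) higher, against 23.7 and 18.0 percent of all probes, and 6 of the 15 were at least 0.5 lower, as were 2.87 percent of all probes. The subfamily median was −0.32, with medians on the single arrays from −0.34 to −0.17. It was −0.16 over the arrays with treated callus in Cy3 and −0.31 over those in Cy5, so its size, not its sign, depended on the dye orientation. Under GA 10 Aux/IAA probes (37.0 percent) were lower and 10 higher, against 22.8 and 26.2 percent of all probes. The median of 0.03 under GA had no settled sign, at 0.0638 without array 08 and −0.0192 with treated callus in Cy5 alone.

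A group of 6 Aux/IAA genes was lower under ABA and higher under GA. IAA12 gave −0.72, −0.69, −1.25 and −1.25 on ABA arrays 24, 20, 19 and 23, and 1.01, 0.98, 0.51 and 0.46 on GA arrays 04, 05, 07 and 08. All ABA arrays were below 0 and all GA arrays above it, with a step between the dye orientations in both. IAA12 was at −0.98 ± 0.32 under ABA (adjusted p = 1.31e-08) and 0.74 ± 0.29 under GA (adjusted p = 5.18e-08), a difference of −1.72 with an SE of 0.04.

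IAA13 had the largest difference between the hormones of all 61 probes. Its ABA arrays 24, 20, 19 and 23 gave −0.79, −1.05, −0.96 and −0.93 and its GA arrays 04, 05, 07 and 08 gave 1.23, 1.23, 1.46 and 1.55. It fell 1.91-fold under ABA (−0.93 ± 0.11, adjusted p = 1.54e-06) and rose 2.58-fold under GA (1.37 ± 0.17, adjusted p = 7.92e-08). The difference was −2.30 with an SE of 0.08 (adjusted p = 2.36e-08).

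The other 4 of the group moved less. IAA30 was at −0.49 ± 0.39 under ABA and 0.35 ± 0.27 under GA, with GA array 08 at 0.01, and its rise under GA was not called without the dye term (adjusted p = 0.0825). IAA15 was at −0.42 ± 0.16 and 0.34 ± 0.11, IAA3 at −0.33 ± 0.05 and 0.17 ± 0.09, and IAA24 at −0.31 ± 0.17 and 0.24 ± 0.08, each with 1 sign on all 4 arrays of a hormone. Of all probes 9.67 percent were called lower under ABA and higher under GA. With the sign of the GA arrays turned, which leaves the fit otherwise as it is, these 6 would be lower under both hormones, and this share would belong to that pattern. IAA30 has IAA31 as its neighbour in the annotation, and IAA31 shared the rise under GA (0.42 ± 0.06, adjusted p = 4.10e-06) but was at −0.07 ± 0.03 under ABA (adjusted p = 0.106).

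A second group of 8 Aux/IAA probes, of 7 genes, was lower under both hormones, where 6.83 percent of all probes were. With the GA sign turned, these 8 and this share would be lower under ABA and higher under GA instead. IAA26 gave −0.96, −1.02, −0.75 and −0.76 on ABA arrays 24, 20, 19 and 23 and −0.86, −0.78, −0.80 and −0.88 on GA arrays 04, 05, 07 and 08. The groups overlapped, at −0.87 ± 0.14 (adjusted p = 4.57e-07) and −0.83 ± 0.05 (adjusted p = 3.84e-07). The difference of −0.04 had an SE of 0.06 (adjusted p = 0.583).

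IAA9 and IAA20 fell more under GA than under ABA. IAA9 was at −0.38 ± 0.11 under ABA and −0.85 ± 0.08 under GA, and IAA20 at −0.36 ± 0.24 and −0.83 ± 0.17, and ABA minus GA was 0.47 for both (adjusted p = 1.55e-05 and 3.88e-05). IAA19 fell more under ABA (−0.61 ± 0.30) than under GA (−0.30 ± 0.20), a difference of −0.32 (adjusted p = 6.11e-04, and 0.153 without the dye term). The 2 probes of IAA1 shared both directions, at −0.70 ± 0.24 and −0.32 ± 0.07 under ABA and −0.21 ± 0.11 and −0.11 ± 0.06 under GA. The calls of IAA19 and of both IAA1 probes under GA ended without the dye term, and that of the second IAA1 probe also without GA array 04, 05 or 07. IAA6 completed the group (−0.37 ± 0.18 and −0.26 ± 0.09) together with 1 probe of IAA8.

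The 2 probes of IAA8 disagreed. The first was at −0.61 ± 0.07 under ABA (adjusted p = 9.38e-07) and −0.13 ± 0.04 under GA (adjusted p = 0.00827), and the second at 0.00 ± 0.08 (adjusted p = 0.983) and 0.03 ± 0.08 (adjusted p = 0.432). The fall of IAA8 therefore rests on 1 of its probes.

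IAA4 belonged to the Aux/IAA genes that were called under GA and not under ABA. On GA arrays 04, 05, 07 and 08 it gave −1.08, −1.13, −1.34 and −1.58. On ABA arrays 24 and 20 it gave 0.21 and 0.28 and on arrays 19 and 23 it gave −0.34 and −0.28, again split by dye. IAA4 fell 2.43-fold under GA (−1.28 ± 0.23, adjusted p = 4.61e-08) and was at −0.03 ± 0.32 under ABA (adjusted p = 0.612), a difference of 1.25 with an SE of 0.07.

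IAA18 rose under GA (0.62 ± 0.06, adjusted p = 1.29e-06) and was at 0.03 ± 0.09 under ABA. IAA25 rose by 0.57 ± 0.12 under GA and IAA17 by 0.47 ± 0.09, and both were also the 2 Aux/IAA probes called higher under ABA, at 0.12 ± 0.07 and 0.12 ± 0.06. Of all probes 3.63 percent were higher under both hormones. The ABA call of IAA25 ended without array 24 or 23 and without the dye term. IAA21 fell under GA (−0.39 ± 0.31) and IAA5 under ABA (−0.32 ± 0.05). The genes IAA2, IAA10, IAA14, IAA16 and IAA23 were called under neither hormone.

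ARF proteins bind the promoters that Aux/IAA proteins keep silent. Under ABA 5 of 18 ARF probes were higher and 3 lower, all by under 0.5. These are 27.8 and 16.7 percent, against 18.0 and 23.7 percent of all probes. Under GA 9 (50.0 percent) were lower and 6 (33.3 percent) higher, against 22.8 and 26.2 percent of all probes, and 3 of the 9 and 2 of the 6 reached 0.5. The subfamily median was 0.03 under ABA, with single arrays from −0.00245 to 0.06, and −0.09 under GA, with single arrays from −0.14 to −0.02.

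ARF24 rose under ABA and fell under GA on both of its probes. The first gave 0.20, 0.20, 0.34 and 0.32 on ABA arrays 24, 20, 19 and 23 and −0.59, −0.57, −0.59 and −0.59 on GA arrays 04, 05, 07 and 08. The second gave 0.47, 0.47, 0.55 and 0.40, and −0.56, −0.53, −0.75 and −1.01. All ABA arrays were above 0 and all GA arrays below it. The means were 0.27 ± 0.07 (adjusted p = 1.36e-04) and −0.59 ± 0.01 (adjusted p = 4.27e-07) on the first probe, and 0.47 ± 0.06 (adjusted p = 2.35e-04) and −0.71 ± 0.22 (adjusted p = 9.70e-06) on the second. The hormones differed by 0.85 and 1.19, with SEs of 0.04 and 0.08.

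ARF15 and ARF3 shared the direction of ARF24, with ARF15 at 0.26 ± 0.05 under ABA and −0.22 ± 0.11 under GA and ARF3 at 0.20 ± 0.10 and −0.24 ± 0.07. These were 4 ARF probes higher under ABA and lower under GA, a pattern of 5.85 percent of all probes, which with the GA sign turned would be higher under both. ARF15 is also named OsETTIN1, after the Arabidopsis floral patterning factor ETTIN. ARF2, named OsETTIN2, fell under GA (−0.59 ± 0.09, adjusted p = 1.46e-06) and was not called under ABA (−0.09 ± 0.01, adjusted p = 0.102). It was called lower under ABA when each hormone was fitted on its own arrays, and without GA array 07 or 08.

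ARF1 and ARF18 rose under GA, at 0.53 ± 0.04 and 0.55 ± 0.07, and were at −0.04 ± 0.06 and −0.03 ± 0.06 under ABA. ARF9 was lower under ABA (−0.18 ± 0.08) and higher under GA (0.33 ± 0.06). ARF10 was the ARF probe with the largest fall under ABA (−0.33 ± 0.09) and fell under GA as well (−0.24 ± 0.11). Of the other ARF probes, ARF4 (−0.43 ± 0.06), ARF23 (−0.29 ± 0.13) and ARF13 (−0.11 ± 0.05) fell under GA, while ARF16 (0.16 ± 0.09) and both probes of ARF12 (0.19 ± 0.03 and 0.10 ± 0.06) rose. ARF14 (0.09 ± 0.10) was higher and ARF17 (−0.17 ± 0.19) lower under ABA, each with arrays of both signs, and ARF7 was called under neither hormone.

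**Figure D3:**
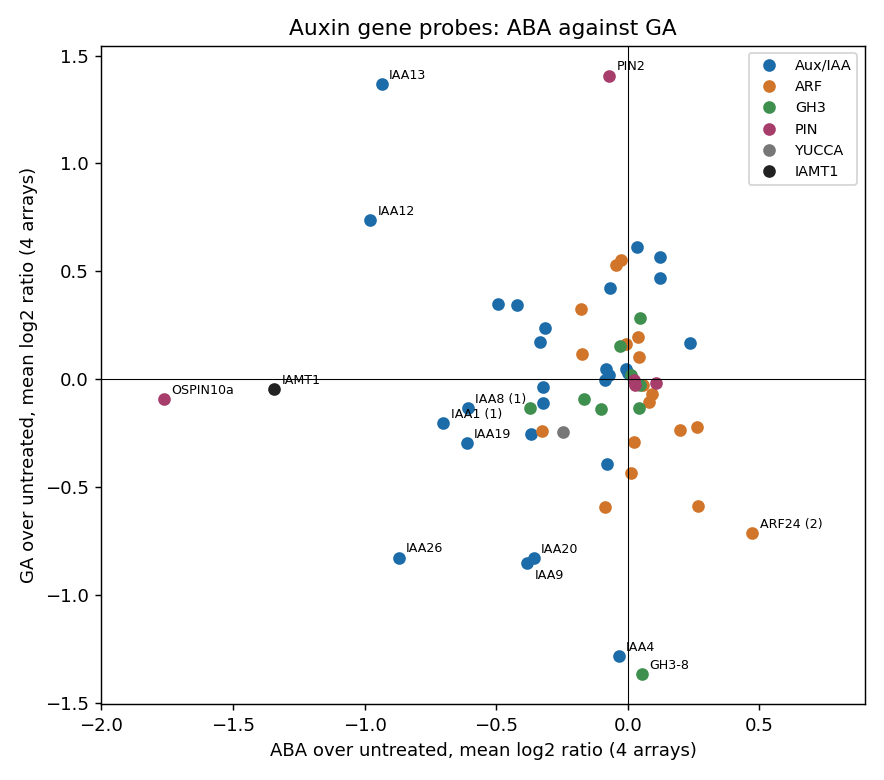
Mean log2 ratio under ABA (horizontal) against GA (vertical) for the 61 auxin probes, 4 arrays each, coloured by subfamily, with labels where the ABA mean is at least 0.5 or the GA mean at least 0.7 from 0. OSPIN10a and IAMT1 lie far left near the horizontal axis, GH3-8, IAA4 and PIN2 lie near the vertical axis, and IAA12 and IAA13 lie upper left.

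Across the subfamilies, the difference ABA minus GA was called lower for 26 and higher for 16 of the 61 probes, against 27.3 percent and 22.7 percent of all probes, 50.0 percent in all. Called under neither hormone were 12 of the 61, against 35.2 percent of all probes. It was lower in 15 and higher in 4 of the Aux/IAA probes, lower in 6 and higher in 9 of the ARF probes, lower in 2 and higher in 2 of the GH3 probes, and lower in 2 and higher in 1 of the PIN probes. The subfamilies were described and not tested against each other. Members of a subfamily are not replicates, and the hormones' arrays have separate numbers, so array batch and hormone cannot be told apart. Were the sign of the GA arrays turned, the difference would be lower in 26 and higher in 14 probes, but in other genes, since IAA13 would be at 0.43 and PIN2 at 1.34.

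**Figure D4:**
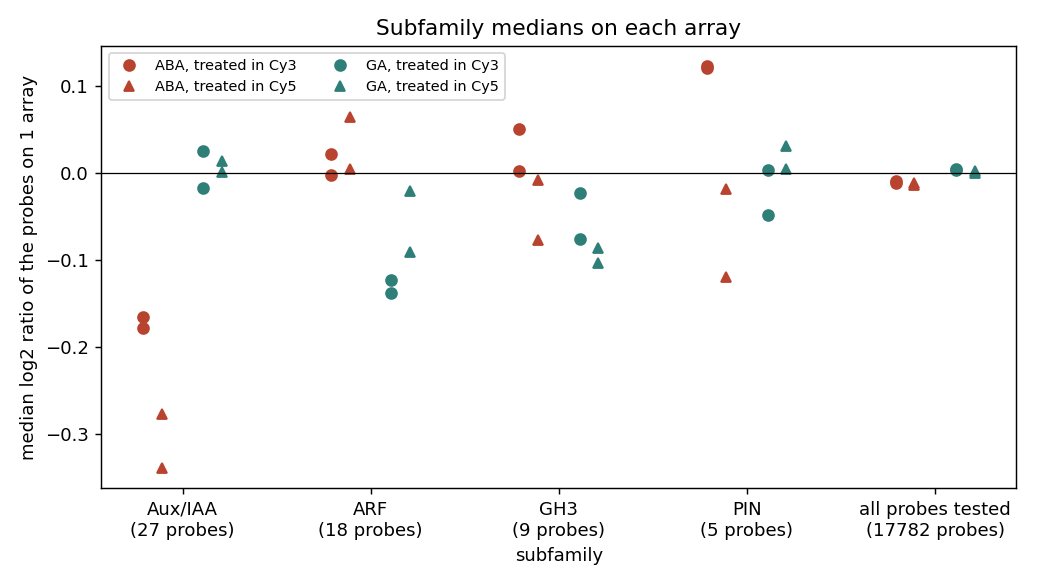
Median log2 ratio of treated over untreated of the probes of each subfamily on each of the 8 arrays, with the median of all 17782 probes at the right, ABA in red and GA in green, circles for treated callus in Cy3 and triangles for Cy5. The 4 ABA medians of Aux/IAA lie from −0.34 to −0.17, below those of all probes on every array, while the 4 PIN medians under ABA separate by dye.

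Other genes of the auxin pathway, taken by symbol from a separate list of enzymes, carriers, kinases and co-repressors, gave 23 probes. Of these 7 were lower and 4 higher under ABA, and 3 were lower and 10 higher under GA. The shares were 30.4 and 17.4 percent under ABA, against 23.7 and 18.0 percent of all probes, and 13.0 and 43.5 percent under GA, against 22.8 and 26.2 percent. DAO, a dioxygenase that oxidises and inactivates IAA, was at −0.86, −0.91, −1.11 and −1.12 on ABA arrays 24, 20, 19 and 23 and at −0.63, −0.60, −1.11 and −1.19 on GA arrays 04, 05, 07 and 08. It fell under both, with means of −1.0 ± 0.13 (adjusted p = 3.07e-07) and −0.88 ± 0.31 (adjusted p = 4.25e-07). The arrays of the hormones overlapped.

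FIB (TAR2), the aminotransferase upstream of YUCCA enzymes, rose under ABA by 0.38 ± 0.12 and under GA by 0.13 ± 0.22, with GA array 08 at −0.16 against 0.08 to 0.30 on the others. ILL2, of a family known in Arabidopsis for freeing IAA from its conjugates, rose under both (0.40 ± 0.08 and 0.64 ± 0.26), as ILL8 did under ABA (0.31 ± 0.09). The family was not uniform. IAR (ILL1) was lower under ABA (−0.25 ± 0.26), and ILL3 and ILL6 were called under neither hormone. ILL5 was higher under GA on 1 probe (0.35 ± 0.06) and not called on the other, and neither probe was called under ABA. OsPID, of the kinase family that directs PIN carriers, was lower under ABA (−0.20 ± 0.06) and higher under GA (0.21 ± 0.09). So was the Topless-related co-repressor ASPR2 (−0.20 ± 0.19 and 0.35 ± 0.15). TPR3, another Topless-related gene, was lower under ABA (−0.16 ± 0.09) and not called under GA (−0.04 ± 0.11). Osnph1a, a phototropin blue-light receptor, rose under GA (1.12 ± 0.15) and was at −0.04 ± 0.20 under ABA. Osnph1b, also named PHOT2, was called under neither hormone. WOX11, a homeobox gene of crown roots that responds to auxin, was higher under ABA (0.32 ± 0.06) and lower under GA (−0.40 ± 0.12).

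Some markers of organs that callus can form were called under the hormones, where 41.8 (ABA) and 49.0 percent (GA) of all probes were. Called under neither were OsSCR1, OSH43, GLUA-3, GLUB-5 and RA14. Of 4 root marker probes 2 were lower under ABA and 2 higher and 1 lower under GA, with means from −0.89 to −0.04 and from −0.58 to 2.18. Of 4 shoot meristem probes 2 were lower under ABA and 3 higher under GA, and their part in the auxin changes was not tested. Of 5 seed probes 2 were higher under ABA and the same 2, EM and RAB16B, lower under GA, while 3 leaf probes were higher under ABA and 2 of them lower under GA.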

How the data were processed

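Per the labels, mRNA purified from the total RNA of treated and untreated callus was amplified, labelled and hybridised in pairs to the NIAS RICE 22K array. The authors deposited 1 table of log ratios, LOWESS-normalized per the labels' descriptions and read here as log10. No source gives the base of the logarithm. Base 10, usual for this maker's software, was assumed, and every log2 value and fold rests on that, but no call does except those that use the 0.5 threshold. The labels call the values treated over untreated, but as deposited arrays of opposite dye orientation opposed each other, so the table was read as Cy5 over Cy3 and arrays with treated callus in Cy3 were turned. Background and spot quality were not analysed here.

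Values were multiplied by 3.32 to give log2. Exact zeros (92 to 243 of 22575 features per array) were treated as missing, and a probe listed with a gene needed 3 values per hormone, which left 17782 of 17788. Names came from RefSeq (ASM3414082v1). The model, run in limma 3.58.1 (R 4.3.3), had 1 mean for each hormone and 1 dye term common to the 8 arrays (5 residual and 3.93 prior degrees of freedom), and Benjamini-Hochberg adjustment over all probes. The median SE was 0.0396 for a hormone and 0.0560 for the difference. The fit was tested on simulated data. The number of arrays limits the precision.

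Separate cultures, or a separate untreated sample per array, are not named in the labels, so the p-values cover the spread of these arrays alone, which may be technical. The members and lists were chosen with earlier results of these data known. Named with values were OSPIN10a, IAMT1, the largest shift of each subfamily per hormone, probes called at 0.5 or more with 1 sign on 4 arrays, probes called in opposite directions and genes with probes of opposite sign, together 28 genes. The other members named were added to account for all. From the list of other pathway genes those called at 0.5 or more were named by rule (DAO, ILL2, Osnph1a), and the rest after their values were seen. In that list 3 probes whose symbol belongs to another protein (OSK1, ASP1) were left out. Likeness to OSPIN10a over arrays is not given, since the arrays fall into 2 hormone groups. Sequences were not used here. Alternatives covered the dye term, scaling, moderation, zeros, features tested, probe averaging, threshold, single arrays left out and the GA sign.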

Additional observations from a re-analysis of the deposited data

Results flagged for a closer look

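In 3 of 68 groups of 4 arrays, 1 array lay far from the other 3 for its gene by Dixon's criterion. The criterion passes about 1 in 20 groups of independent normal values. Arrays of the same dye orientation were more alike, so the count cannot be set against that rate. The first probe of IAA8 was at −0.0758 on GA array 08 and at −0.16 to −0.15 on the other GA arrays. The second probe of IAA1 was at −0.20 on GA array 07 and at −0.09 to −0.07 on the others. ARF1 was at −0.13 on ABA array 23 and at −0.02 to −0.0024 on the others.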

How the results depend on the processing

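The number of auxin probes called higher under ABA was 8, and it was 4 without the dye term, 4 at an adjusted p under 0.01, and 4 to 9 with 1 array left out (4 without ABA array 24, 5 without array 20 or 23). Over all probes the dye term mattered as well, with 1775 higher and 2668 lower under ABA and 2439 higher in ABA minus GA without it, and 2054 were higher under ABA at the stricter threshold. The median of all auxin probes under ABA was −0.0359 after quantile normalization and −0.0656 to −0.0304 with 1 array left out. That of Aux/IAA under ABA was −0.16 with treated callus in Cy3 alone. The Aux/IAA median under GA was −0.0192 with treated callus in Cy5 alone, 0.0471 with the probes of a gene averaged and 0.0211 to 0.0638 with 1 array left out, so it has no settled sign. The GH3 median was 0.0143 under ABA and −0.0926 under GA. Under ABA it was −0.0425 in Cy5 alone and −0.0117 to 0.0160 with 1 array left out, so it has no settled sign. Under GA it was −0.0575 in Cy3 alone, −0.129 in Cy5 alone and −0.128 to −0.0213 with 1 array left out. The cause of these shifts was not tested. With the sign of the GA arrays turned, ABA minus GA reversed for ARF24 (−0.32 and −0.24), PIN2 (1.34), IAA4 (−1.32), IAA13 (0.43), GH3-8 (−1.31), IAA9 (−1.23) and IAA20 (−1.19), and for IAA26 it became −1.70. Of 81 results for single genes, 62 kept their call under every alternative run for them. The GA sign was turned for ABA minus GA alone, so the 62 do not cover it for results under GA. Those would keep their size and change direction. Fits of each hormone on its own arrays gave no ABA minus GA, and probe averaging was not set against genes with 2 probes. Among the 62, IAA4 and the second probe of IAA8 under ABA, not called and near 0, took either sign. No paired analysis was possible because the array numbers of ABA and GA do not overlap. Signal over background is not in the table, so what it limits was not analysed here.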
